A study of Mus musculus with 2 samples.

Results

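The cells described here are gate-positive lung Vγ1 T cells of Vγ4/Vγ6-deficient mice in which no transcript of a Trav15-dv6 delta variable gene was read. They were selected on their own transcripts in the library labelled KO. A cell entered if it passed the study's cell filter (over 200 and under 4000 detected genes, under 10% mitochondrial transcripts) and had a transcript of at least 3 of 8 gate genes. The gate genes were Tmem176a, Tmem176b, Cxcr6, Il18r1, Aqp3, Ccr6, Icos and Serpinb1a. A member also had 0 transcripts of the 4 Trav15-dv6 genes and under 5 in the sum of the macrophage genes Lyz2, C1qa, C1qb and Csf1r. The rule found 1296 members among 6634 KO cells that passed the filter, and 9139 such cells were read in the whole series. Because these values chose the cells, every level below is a description and none was tested.

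The study sorted γδ T cells from the lungs of uninfected mice of 5 to 7 weeks and made 1 droplet library per group. The KO library held Vγ1+ cells of the strain B6.Cg-Tcrgtm1lku(B6.Vg4-/-Vg6-/-), and the WT library held Vγ1- cells of C57BL/6NCrl mice. The design sets Vγ1+ cells of the deficient strain beside the Vγ1- cells of a normal lung. The sources used here do not state how many animals were pooled. Unique molecular identifiers (UMIs), each standing for 1 captured transcript, were counted per gene and cell, and levels are given as UMIs per 1000000 UMIs of a group of cells (CPM). Neither group was replicated, no test was made for that reason, and all intervals are 95% intervals of counting error only. KO stands throughout for the library labelled so. Sort, genotype, strain, library and the sex of the animals, which the labels do not give, cannot be told apart in any comparison with WT cells.

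γδ T cells that make IL-17 (γδ17 cells) are preset in the thymus and answer IL-1β and IL-23 within hours, without the delay of a naive T cell response. In the mouse they carry mostly Vγ4 or Vγ6 chains, sit in barrier tissues such as lung and skin, and recruit neutrophils. Vγ1 cells are better known as recirculating, interferon-γ-making cells. A subset of them pairs Vγ1 with a delta chain encoded by the Trav15-dv6 genes and shares the regulator Zbtb16 (PLZF) with natural killer T cells.

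The rule rests on reading the Trav15-dv6 genes, so the end of their variable segments is shown first. The lines give the last 90 bases of each annotated transcript 5′ to 3′, all on the plus strand of chromosome 14 (GRCm38, from the GENCODE annotation), and capitals mark bases that differ from Trav15-2-dv6-2 (chr14:53649905-53649994). Trav15-1-dv6-1 (chr14:53560158-53560247) and Trav15d-1-dv6d-1 (chr14:52863847-52863936) each differed at 15 of the 90 bases. Trav15d-2-dv6d-2 (chr14:52957311-52957400) differed at 0.
Trav15-2-dv6-2: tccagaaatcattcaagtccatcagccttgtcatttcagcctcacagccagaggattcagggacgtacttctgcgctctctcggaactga
Trav15-1-dv6-1: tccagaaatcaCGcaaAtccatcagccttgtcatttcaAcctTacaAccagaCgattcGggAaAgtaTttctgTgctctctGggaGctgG
Trav15d-1-dv6d-1: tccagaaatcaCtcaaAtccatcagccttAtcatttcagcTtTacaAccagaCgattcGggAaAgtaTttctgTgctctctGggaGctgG
Trav15d-2-dv6d-2: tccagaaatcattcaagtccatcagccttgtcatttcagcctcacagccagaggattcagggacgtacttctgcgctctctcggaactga

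Near-identical sequence makes the assignment of a read to 1 of the 4 genes uncertain. Of the 321 possible 50-base windows of the Trav15-2-dv6-2 transcript, 123 (38.3%) also stood in another of the 4 genes, and Trav15d-2-dv6d-2 shared 35.2% of its windows. For Trav15-1-dv6-1 and Trav15d-1-dv6d-1 the shares were 8.07% and 7.59%. None of their windows stood in the other delta genes shown next. The rule used the sum over the 4 genes, so a read moved between them leaves membership as it is. A read that was discarded because it matched several of them would not have been counted.

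The delta variable genes most often read in the members were Trdv2-2, Trdv5, Trav13-4-dv7, Trdv4 and Trdv1. Their last 60 transcript bases are shown 5′ to 3′ in the direction of transcription, with the codon of the conserved cysteine that opens the third complementarity-determining region in capitals. The positions on chromosome 14 of GRCm38 are chr14:53961543-53961602 (plus strand) for Trdv2-2, chr14:54148662-54148721 (minus) for Trdv5, chr14:53757862-53757921 (plus) for Trav13-4-dv7, chr14:54075456-54075515 (plus) for Trdv4 and chr14:53882158-53882217 (plus) for Trdv1.
Trdv2-2: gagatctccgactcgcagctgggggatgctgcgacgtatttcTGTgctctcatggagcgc
Trdv5: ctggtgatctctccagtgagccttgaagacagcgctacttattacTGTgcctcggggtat
Trav13-4-dv7: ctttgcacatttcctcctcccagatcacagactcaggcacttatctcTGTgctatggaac
Trdv4: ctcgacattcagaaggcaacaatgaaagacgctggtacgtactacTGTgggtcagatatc
Trdv1: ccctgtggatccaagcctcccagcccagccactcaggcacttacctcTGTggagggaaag

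Members had a median of 4118 UMIs and 1768 genes per cell, against 3426 UMIs and 1554 genes in the rest of the KO T cells. The rest comprised 5095 KO cells outside the rule that had a transcript of Cd3d, Cd3e, Cd3g or Trdc with under 5 macrophage and under 3 B cell UMIs. Detection of the gate genes depends on depth, and the median depth climbed from 2979 UMIs in dv6-negative cells with 0 gate genes to 5335 in those with 8. Of the members 1276 (98.5%) had a CD3 or Trdc transcript. Among 6366 KO T cells 1271 were members, a share of 19.97% (18.99 to 20.97), and in the WT library the same rule took 1204 of 2243 T cells, or 53.7% (51.6 to 55.8). The sort sets these shares in part. Only 4 members had a barcode that also occurred in the WT library, of 23 barcodes the libraries shared. Transcripts of Y-linked genes were read in 31 KO and 614 WT cells, among them 3 of 1296 members and 355 of the 1232 WT cells chosen by the same rule.

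The gamma chain transcripts went with the sort but in part against the genotype label. Tcrg-V1 was read in 59.6% of members and gave 74.3% of their gamma variable UMIs. Tcrg-V6 was at 0 UMIs in 1296 members. Tcrg-V4 had 386 UMIs and was read in 283 members (21.8%, 19.6 to 24.2), in a strain labelled as lacking Vγ4. Its share of gamma UMIs was 17.7% in members, 17.2% in the rest, 17.3% in gate-positive dv6 cells and 18.9% in the 65 KO myeloid or B cells, so it was nearly the same in every kind of cell. In the WT cells chosen by the same rule Tcrg-V6 gave 76.7% of gamma UMIs and Tcrg-V4 10.02%. Tcrg-V5 was read in 3.09% of members (2.21 to 4.18) and 0.981% of the rest (0.729 to 1.29) before thinning, so at unequal depth. It was not particular to members, with 4.48% (2.76 to 6.84) in gate-positive dv6 cells and 11.85% (10.10 to 13.79) in the WT cells.

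The number of gate genes per KO cell had a peak at 0, a trough and a second, lower peak. Of the 6634 KO cells 38.9% had 0 gate genes, 24.2% had 1 and 10.5% had 2. The share reached 4.99% at 4 gate genes and then 6.87% at 5 and 5.94% at 6. In the WT library the trough lay at 3 gate genes (8.38%) and the upper peak at 5 (13.0%). When every cell was thinned to 2000 UMIs the KO trough moved to 3 genes (6.49%) and the peak to 4 (7.73%), and the rule's threshold lay at or just below the trough in both versions. It lay between 695 KO cells with 2 gate genes and 387 with 3.

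**Figure D1:**
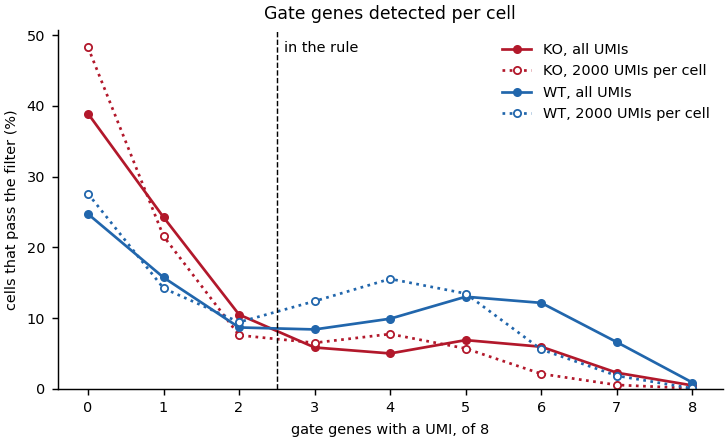
Share of cells that pass the filter (%, vertical axis) by the number of gate genes with a UMI (horizontal axis), for the KO (red) and WT (blue) libraries, with all UMIs (solid lines) and after thinning each cell to 2000 UMIs (dotted lines); the dashed line marks the rule's threshold. Both libraries have a peak at 0 genes and a second at 4 to 5 genes, and the KO library has more cells at 0 (38.9%) than WT.

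Of the 1749 KO cells with at least 3 gate genes, 449 were set aside for a dv6 transcript. Cells on either side of that limit are given next. Il23r, which encodes the IL-23 receptor chain, stood at 229 CPM in members, 190 CPM in the 212 cells with 1 dv6 UMI and 180 CPM in the 234 cells with 2 or more. Il17a stood at 59.2, 117 and 62.7 CPM in the same 3 sets, while the shares of cells with an Il17a UMI were 7.79%, 8.49% and 9.83%. A further 4 dv6-negative cells were set aside for 5 or more macrophage UMIs, with a median of 8321 UMIs per cell and 0 UMIs of Il23r. Scrublet's own threshold marked 0 KO cells as doublets and so did not work, and 112 members were among the top 5% of its scores.

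The gate genes themselves chose the cells, so their levels only describe the cut. Icos, a costimulatory receptor, stood at 1478 CPM in members and 260.0 CPM in the rest, and Cxcr6, a tissue chemokine receptor, at 978 and 156 CPM. Tmem176b and Tmem176a, a pair of ion channel genes of IL-17-type lymphocytes, stood at 631 and 567 CPM in members and 78.9 and 72.2 CPM in the rest. Serpinb1a, a protease inhibitor, was at 325 and 48.3 CPM, Il18r1, a chain of the IL-18 receptor, at 292 and 68.6 CPM, and Aqp3, a water and glycerol channel, at 112 and 23.8 CPM. Ccr6, a chemokine receptor of IL-17-type cells, was at 30.5 and 2.595 CPM. In gate-positive dv6 cells all 8 were between 21.1 CPM (Ccr6) and 1398 CPM (Icos), each somewhat under its level in members.

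The label of these cells, IL-17-type, was set against their markers and did not hold for all of them. Of the 5 genes given as their markers, Cxcr6 and Tmem176b are gate genes, whose level the rule fixed. Of the other 3, Il23r and Cd40lg were higher in members than in the rest of the KO T cells, with the values given below. Cd28, which encodes the main costimulatory receptor of T cells, stood at 139 CPM in members and 151 CPM in the rest, a log2 ratio of -0.11 (-0.23 to -0.00056), and at 0.15 when 2 gate genes were enough. A set of 258 members (19.9%, cluster 1 below) had little Il23r and was led by Fcer1g, Klrc1, Ly6c2 and Ccl5. The members are named here by the rule for that reason.

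Against the rest of the KO T cells, 4 of 5 genes of the IL-17 cytokine and cofactor list were at least 2-fold higher in members. These were Il17a, Tnf, Areg and Lta, while Il17f, Il22, Il21 and Csf2 had too few UMIs to be compared. Of tissue-homing genes 12 of 23 were at least 2-fold higher, and 8 of 15 naive and recirculation genes were at least 2-fold lower. Of 9540 genes with at least 100 UMIs over both groups, 473 (4.96%) were at least 2-fold higher and 366 (3.84%) at least 2-fold lower in members. The median log2 ratio of all genes was -0.05. Where 2 levels are given, members come first, and the number that follows them in parentheses is the log2 ratio of members over the other group, with its interval where printed. These percentages are the background for the gene lists that follow. A count is of genes at least 2-fold apart, and the gate itself favours any gene that goes with the 8 gate genes.

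Among cytokines, 4 of 5 genes with enough UMIs were at least 2-fold higher and 0 lower, and the list's median log2 ratio was 2.10. Il17a, the defining cytokine of γδ17 cells, had 339 UMIs in members (59.2 CPM) and 11.1 CPM in the rest, a log2 ratio of 2.42 (2.17 to 2.67). Tnf, an inflammatory cytokine, stood at 71.4 and 14.96 CPM (2.26, 2.04 to 2.48). Areg, an epithelial growth factor, stood at 58.6 and 13.7 CPM (2.10). Lta was at 1.81 and Ltb, its membrane partner, at 0.40. Il17f had only 43 UMIs in all members (7.51 CPM) and Il22 only 10, too few for the comparison, and Il21 was at 0 UMIs in both groups.

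At equal depth Il17a was read in 5.38% of members (4.18 to 6.81) and 0.705% of the rest (0.483 to 0.994). Without thinning the shares were 7.79% and 0.942%. Of 52 KO myeloid or B cells deep enough for thinning, 0 had an Il17a UMI. That allows a share of about 5.77%, a rough limit set at 3 cells of 52 and not an exact interval. That group had a median of 4250 UMIs before thinning, and 53.8% of its 65 cells also held a CD3 or Trdc transcript. In the rest without gate-positive dv6 cells the thinned share of Il17a was 0.146% (0.0537 to 0.318). Of 48 cells of the rest with an Il17a UMI before thinning, 7 remained once the gate-positive dv6 cells were left out.

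The receptors through which γδ17 cells are driven were higher as well. Of 19 receptor genes compared, 5 were at least 2-fold higher and 2 lower, with a median of 0.30. Il1r1, the signalling receptor for IL-1β, stood at 85.0 CPM in members and 9.11 CPM in the rest (3.22, 2.97 to 3.48). Il23r stood at 229 and 25.5 CPM (3.16, 3.02 to 3.32). Il2ra, the high-affinity IL-2 receptor chain, was at 203 and 29.2 CPM (2.80), Il17re at 58.1 and 8.65 CPM (2.75) and Il12rb1, which pairs with Il23r, at 22.3 and 5.495 CPM (2.02). Il7r, the receptor for the survival cytokine IL-7, was 1471 and 839 CPM (0.81). Lower were Il6st, the shared signalling chain of IL-6 family receptors (9.43 and 43.3 CPM, -2.20), and Il21r (160.2 and 334 CPM, -1.06).

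At equal depth Il23r was read in 29.5% of members (26.9 to 32.1) and in 2.87% of the rest (2.40 to 3.39), against 45.5% and 4.69% without thinning. In KO myeloid or B cells the thinned share was 5.77% (1.21 to 15.95). Most members had no Il23r UMI at this depth, which does not show that they lack the receptor.

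Of 15 regulators assigned to the IL-17 lineage, 5 were at least 2-fold higher and 3 lower, with a median of 0.63. Blk, a Src-family kinase of B cells and γδ17 cells, had the highest log2 ratio among genes read in 10% of the cells of either group (37.4 and 3.41 CPM, 3.45, 3.05 to 3.87). Maf, which encodes the transcription factor c-Maf, stood at 149 and 31.0 CPM (2.27), Sox13 at 15.5 and 3.05 CPM (2.35), Rora at 851 and 232 CPM (1.87) and Zbtb16 at 432 and 138 CPM (1.65). Lower were Sox4 (24.3 and 106 CPM, -2.12), Id3, an inhibitor of E proteins (11.9 and 44.3 CPM, -1.90), and Ahr, the aryl hydrocarbon receptor (35.1 and 74.4 CPM, -1.08). Sox4 and Ahr are on the list for their roles in IL-17 programmes, and neither was higher in members. At equal depth Zbtb16 was read in 50.4% of members and 15.8% of the rest, and Maf in 24.5% and 5.16%, against 72.5% and 26.2% for Zbtb16 and 40.2% and 8.46% for Maf before thinning. Zbtb16 was read in 13.5% (5.59 to 25.8) and Maf in 7.69% (2.14 to 18.5) of KO myeloid or B cells.

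Tissue-homing transcripts formed the list with the most higher genes, 12 of 23, with 1 lower and a median of 1.03. Ccr2, the receptor for monocyte-attracting chemokines, stood at 222 CPM in members and 31.6 CPM in the rest (2.81). Ccr8, a chemokine receptor of tissue T cells, stood at 70.2 and 15.98 CPM (2.14), and Cd44, an activation and adhesion receptor, at 196 and 44.9 CPM (2.12). The calcium-binding genes S100a4 (1056 and 182 CPM, 2.54) and S100a6 (2311 and 434 CPM, 2.41), the galectin Lgals3 (156 and 33.0 CPM, 2.24) and Anxa1 (39.4 and 6.72 CPM, 2.55) were also higher. Itga4, an integrin chain for entry from blood, was lower (109.6 and 273 CPM, -1.32). Cd69 (-0.35) and Itgae (0.63), a pair of residence genes, were within 2-fold.

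Naive and recirculation genes went the other way. Of 15 genes 0 were at least 2-fold higher and 8 lower, with a median of -1.01. Ccr7, the lymph node homing receptor, stood at 153 CPM in members and 603 CPM in the rest (-1.98, -2.08 to -1.88). Lef1 stood at 206 and 662 CPM (-1.69), Klf2, which drives exit from tissue, at 284 and 836 CPM (-1.56), and Tcf7, which encodes TCF-1, at 214 and 431 CPM (-1.01). Dapl1, Igfbp4, Foxp1 and Actn1 were the others, at -2.67, -1.37, -1.15 and -2.68. At equal depth Klf2 was read in 29.7% of members and 66.2% of the rest, and in 55.8% (41.3 to 69.5) of KO myeloid or B cells. Before thinning the shares were 39.8%, 76.5% and 63.1%, so its share in those other cells was above that of members.

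Type 1 and cytotoxic genes were mixed. Of 16 compared, 2 were at least 2-fold higher and 5 lower, and the median was -0.47, which became 0.19 when 2 gate genes were enough. Ccl5, a chemokine of memory and cytotoxic cells, stood at 935 and 2395 CPM (-1.36), Klrd1 at 40.7 and 162 CPM (-1.99) and Ly6c2 at 185 and 405 CPM (-1.13). Eomes, at 1.92 and 8.19 CPM, was also lower (-2.09), as was Gzma (-1.01). Gzmb (111 and 43.4 CPM, 1.36) and Klrk1, which encodes NKG2D (70.7 and 23.7 CPM, 1.58), were higher. Ifng was at 20.8 and 25.6 CPM (-0.30, -0.60 to -0.01) and Tbx21, which encodes T-bet, at 38.1 and 29.6 CPM (0.36, 0.13 to 0.59), both within 2-fold. Without cluster 1 of the members, described below, 2 of 16 genes were higher and 11 lower, with a median of -2.13. Genes of this list lead that cluster, so leaving it out lowers them by construction.

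T cell receptor signalling genes were mostly within 2-fold, with 1 higher and 4 lower of 19 and a median of -0.33. Nr4a1, an early response gene to receptor signals, stood at 272 and 133 CPM (1.04). Themis (29.0 and 90.8 CPM, -1.65), Prkca (-1.34), Prkch (-1.16) and Cd247, the CD3 zeta chain (175 and 354 CPM, -1.01), were lower. Lck, the kinase that starts receptor signalling, was at 182 and 304 CPM (-0.74). At equal depth Lck was read in 27.5% of members, 43.0% of the rest and 23.1% (12.5 to 36.8) of KO myeloid or B cells, against 43.5%, 60.8% and 33.8% before thinning.

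Of 13 costimulation and checkpoint genes, 2 were at least 2-fold higher and 2 lower, with a median of -0.44. Cd40lg, the ligand by which T cells license B cells and myeloid cells, stood at 91.6 CPM in members and 16.4 CPM in the rest (2.48, 2.28 to 2.68). Tnfsf11, which encodes RANKL, stood at 259.9 and 57.3 CPM (2.18). Tnfsf8 (-1.81) and Slamf6 (-1.39) were lower. At equal depth Cd40lg was read in 13.4% of members (11.5 to 15.5) and 2.45% of the rest. It was read in 0 of 52 KO myeloid or B cells, which allows about 5.77% by the same rough limit. Before thinning it was read in 22.2%, 4.20% and 3.08% of these cells. Cd28 was read in 21.2% of members (18.9 to 23.6) and 23.0% of the rest (21.7 to 24.2), intervals that overlap, and in 5.77% of KO myeloid or B cells, against 32.6%, 35.5% and 21.5% before thinning.

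**Figure D2:**
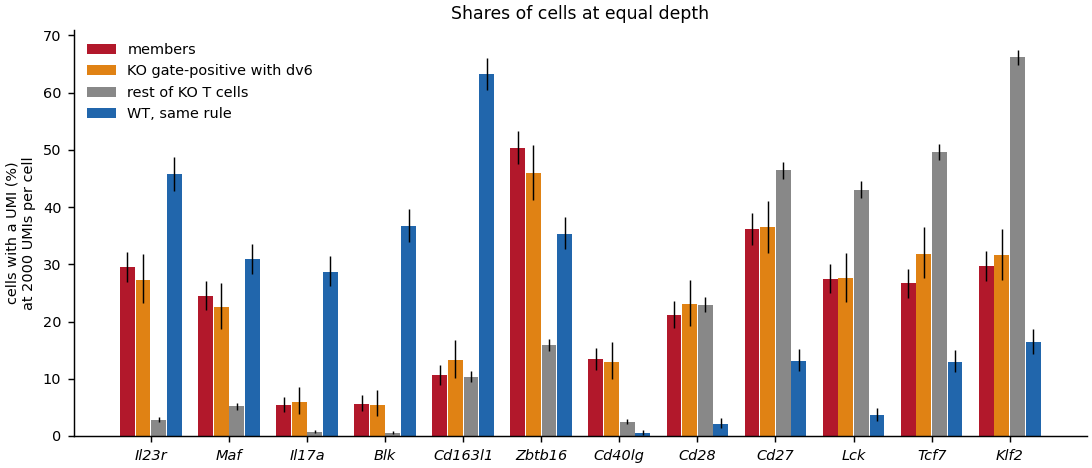
Share of cells with a UMI of each gene (%, vertical axis) after thinning every cell to 2000 UMIs, in members (red), KO gate-positive cells with dv6 (orange), the rest of the KO T cells (grey) and WT cells chosen by the same rule (blue); lines are 95% counting intervals. Members and dv6 cells have overlapping intervals for each gene shown, Il17a was read in 5.38% of members and 28.7% of the WT cells, and Cd28 in 21.2% and 2.15%.

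Among surface genes linked to the IL-17 lineage, 6 of 13 were at least 2-fold higher and 2 lower, with a median of 0.81. Kcnk1, a potassium channel, stood at 34.0 and 2.54 CPM (3.74), Ltb4r1, the high-affinity leukotriene B4 receptor, at 93.0 and 11.3 CPM (3.04), and Ramp1, part of the receptor for the neuropeptide CGRP, at 372 and 97.6 CPM (1.93). 5830411N06Rik, which encodes the scavenger receptor SCART2, stood at 468 and 169 CPM (1.47). Cd163l1, which encodes SCART1, was within 2-fold (133 and 99.0 CPM, 0.42). Ctla2a (1.09) was higher, though it shares sequence with Ctla2b (0.81) and reads could be split between them. Ms4a4b (-1.37) and Ms4a6b (-1.60) were lower.

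Survival genes had 3 of 9 higher and 0 lower (median -0.04), namely Bcl2l1 at 25.5 and 9.01 CPM (1.5 on the log2 scale) and the near-identical copies Bcl2a1b (2.24) and Bcl2a1d (2.39), whose reads cannot be separated with certainty. Of 14 glycolysis genes 1 was higher, Hk2, the inducible hexokinase, at 85.4 and 13.5 CPM (2.66), with a list median of 0.34. Of 8 lipid genes 0 were higher and 1, Scd2, was lower (-1.02). Of 7 cell cycle genes 0 were higher and Top2a was lower (9.43 and 19.6 CPM, -1.06). Immediate-early and heat-shock genes, which tissue dissociation is known to induce, had 5 of 13 higher and 0 lower (median 0.55). Fosb (2.15), Atf3 (2.99), Fos (1.31), Hspa1a (1.36) and Hspa1b (1.54) were those genes. The list's summed level was 7135 CPM in members and 5212 CPM in the rest, and its part in the other differences was not tested.

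Markers of other cells that such a sort could hold were low in both groups. The 9 myeloid markers summed to 4.89 CPM in members and 7.17 CPM in the rest, and C1qa, C1qc and Adgre1 were at 0 in members. B cell markers summed to 80.1 and 69.3 CPM, of which Ighm gave 47.5 and 56.7 CPM, and Ms4a1 had 10 UMIs in members and 0 in the rest, whose definition limits B cell transcripts. Of the members 5 had 3 or more UMIs of Cd79a, Cd79b and Ms4a1. αβ T cell markers summed to 47.7 and 143 CPM, with Cd8b1 lower in members (14.7 and 94.1 CPM, -2.68). NK or ILC markers summed to 21.6 and 56.2 CPM, epithelial markers to 11.7 and 28.8 CPM, endothelial markers to 38.2 and 66.5 CPM, red cell markers to 3.49 and 2.44 CPM, cycling markers to 15.9 and 29.1 CPM and γδ T cell markers to 2972 and 3063 CPM. Krt8, Cdh5 and Kdr were at 0 in members.

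The genes farthest apart from the rest, by a rule that kept genes read in 10% or more of the cells of either group, included some outside the lists. Beside Blk, Il1r1, Il23r and Ltb4r1, the higher ones were Pxdc1 (291 and 32.6 CPM, 3.16), Fstl4 (3.14), Mmp25, a membrane-anchored matrix metalloproteinase (3.102), Ly6g5b (3.08) and Hlf, a circadian-type transcription factor (3.04). The lower ones were Hdac9, a histone deacetylase (14.7 and 102 CPM, -2.80), Gria3 (-2.79), Sox5 (-2.70), Cd8b1, Actn1, Klhdc2 (-2.61), BE692007 (-2.44), Ppic (-2.36) and Cd24a, a surface protein of immature T cells (16.1 and 81.8 CPM, -2.35). Pxdc1 was read in 51.5% of members and 5.16% of the rest before thinning.

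The rest contained nearly all of the 446 gate-positive cells with dv6. Leaving them out gave 528 genes at least 2-fold higher and 422 lower. The thinned share of Il23r in the rest then went from 2.87% to 0.268% (0.134 to 0.480) and that of Blk from 0.551% to 0.0244%. Before thinning, 239 cells of the rest had an Il23r UMI, and 44 did without those cells. For Blk the numbers were 55 and 3. Without them the rest held only cells that failed the gate, so genes that go with the gate genes rise by construction. Blk was read in only 3 of those cells, so its ratio rests on few UMIs. The log2 ratio of members over the rest was then 7.75 for Blk, 6.54 for Il17a, 5.74 for Il23r, 5.35 for Il1r1 and 3.62 for Cd40lg. With all cells thinned and chosen again it was 3.96 for Il17a and 3.90 for Il23r. Where members had to have another delta gene read, and the other cells without dv6 joined the rest, it was 1.25 for Il17a, 2.12 for Il23r and 1.93 for Blk.

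**Figure D3:**
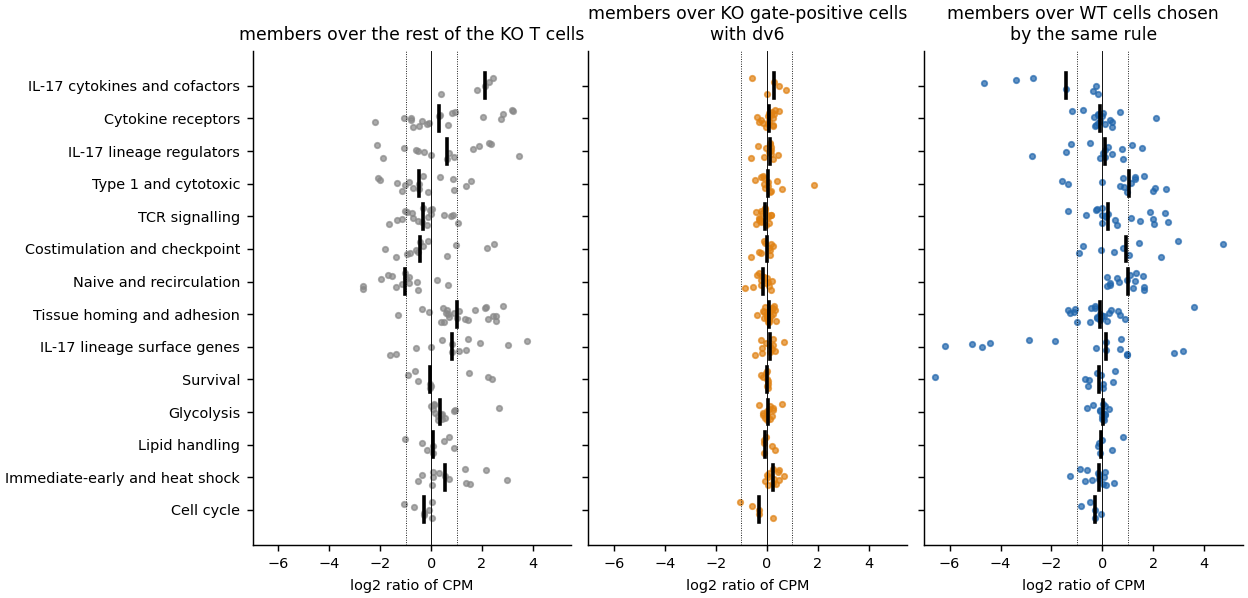
Log2 ratio of CPM (horizontal axis) for the genes of 14 lists (rows), in members over the rest of the KO T cells (left), over KO gate-positive cells with dv6 (middle) and over WT cells chosen by the same rule (right). Each point is a gene with at least 100 UMIs, black bars are list medians and dotted lines mark 2-fold; the left panel spreads from -2.68 to 3.74, the middle panel stays close to 0, and in the right panel the cytokine median lies at -1.44.

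Levels are set out here by the number of gate genes, the quantity that chose the cells. In cells without dv6, Il23r stood at 1.67 CPM with 0 gate genes, 11.1 with 1, 17.9 with 2, 79.4 with 3, 184 with 4, 259 with 5, 286 with 6, 335 with 7 and 433 with 8. Il1r1 stood at 0.607 CPM with 0, 30.5 with 3, 67.9 with 4 and 147 with 8. Il17a was at or under 3.22 CPM up to 2 gate genes, at 6.10 CPM at 3 and 43.2 CPM at 4. The 8-gene set held 23 cells and the 7-gene set 110.

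Ccl5 was high up to 3 gate genes and then dropped, from 2895 CPM at 3 to 831 at 4, 514 at 5, 248 at 6 and 212 at 7. Lef1 went from 514 CPM at 3 to 155 at 4, and Klf2 from 606 to 271. Cells with exactly 3 gate genes stood nearer to the cells outside the rule in these genes than to members with 4 or more. Cd28 had another shape, with its highest level, 232 CPM, at 3 gate genes, 132 CPM at 0 and 79.9 CPM at 7. Cd40lg climbed from 1.97 CPM at 0 through 57.6 at 3 to 108 at 5, and Zbtb16 from 61.9 at 0 through 355 at 3 to 473 at 5. Median depth per cell was higher along the same axis, and its part in these orders was not tested beyond the scaling to CPM.

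**Figure D4:**
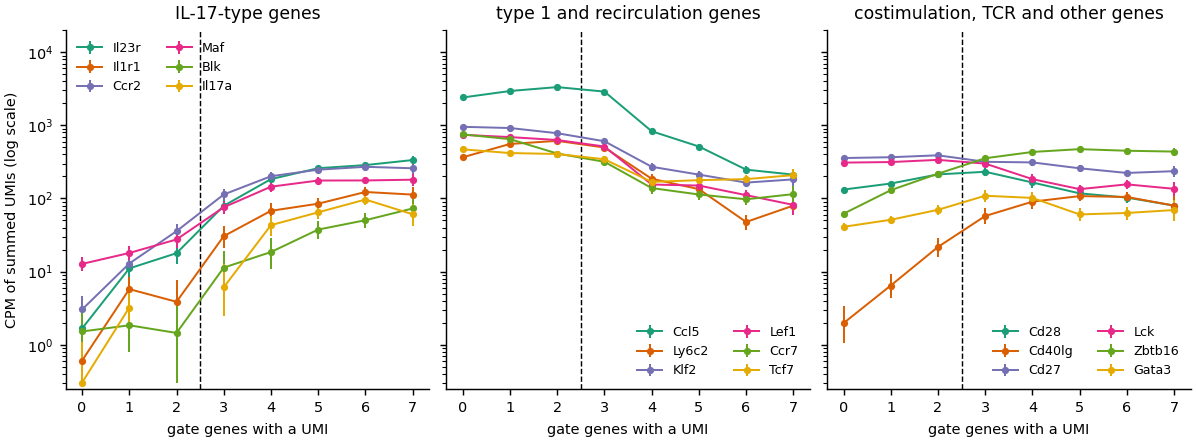
Level (CPM of summed UMIs, log scale, vertical axis) by the number of gate genes with a UMI (0 to 7, horizontal axis) in KO cells without dv6, for IL-17-type genes (left), type 1 and recirculation genes (middle) and costimulation, TCR and other genes (right); lines on points are 95% counting intervals, the dashed line marks the rule, and a level of 0 is not drawn. Il23r climbs from 1.67 to 335 CPM, while Ccl5 drops from 2895 CPM at 3 gate genes to 831 CPM at 4.

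Clustering of the members without the gate genes and TCR genes gave 4 clusters, which are described by their leading genes. Cluster 0 held 476 members (36.7%), and its leading genes were Ppp1r3b, Ccr8, Calca, which encodes CGRP, Samd11 and Cd93. Il23r stood there at 280.3 CPM, Maf at 235 CPM, Areg at 122 CPM and Il17a at 90.5 CPM. Cd40lg was at 130.4 CPM and Ccr8 at 143 CPM, against 17.0 to 37.1 CPM of Ccr8 in the other clusters. Ccl5 was at 26.8 CPM.

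Cluster 2 held 425 members (32.8%), with leading genes of smaller ratio, among them Pinx1, Ptpra, Slc25a24, Itgae, which encodes CD103, and Lgals3. Its Il23r level was 302 CPM and its Ltb level 1182 CPM, while Il17a stood at 11.6 CPM, against 90.5 CPM in cluster 0. Cluster 3 held 137 members (10.6%) at a lower median depth of 3698 UMIs and was led by Hspa1a, Hspa1b, Egr1, Fosb and Maff, which are heat-shock and immediate-early genes. Its Il17a level was 195 CPM and its Cd40lg level 167 CPM, against 90.5 and 130.4 CPM in cluster 0, and the shares of cells with a UMI were 13.1% and 13.9% for Il17a and 28.5% and 29.4% for Cd40lg. Whether the stress transcripts bear on those levels was not tested.

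Cluster 1 held 258 members (19.9%) with a median of 3 gate genes, where the others had 5. Its leading genes went against an IL-17-type name: Fcer1g, Klrc1, Ly6c2, Ccl5, Gimap7, Pde2a and Klrd1. Il23r stood at 21.8 CPM and Il1r1 at 7.27 CPM, beside 25.5 and 9.11 CPM in the rest of the KO T cells. That rest includes nearly all gate-positive dv6 cells and so is no baseline free of such transcripts. Il23r stood at 190 CPM in gate-positive cells with 1 dv6 UMI and 180 CPM in those with 2 or more, and Il1r1 at 56.7 and 65.0 CPM. In cluster 1 Il23r was read in 6.20% of cells before thinning. Il17a stood there at 21.0 CPM, above the 11.6 CPM of cluster 2 and the 11.1 CPM of the rest. It was read in 1.55% of the cells of cluster 1 and 3.06% of those of cluster 2. Ccl5 stood at 3828 CPM, Ly6c2 at 767 CPM, Lef1 at 582 CPM, Klf2 at 632 CPM and Ifng at 66.2 CPM. Cd28 was at 261 CPM against 89.1 to 110.2 CPM in the other clusters, and Lck at 343 CPM against 98.4 to 163 CPM. Maf (53.3 CPM) and Zbtb16 (295 CPM) were above their levels in the rest (31.0 and 138 CPM). Since genes of the same cells made the clusters, these differences are no test.

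**Figure D5:**
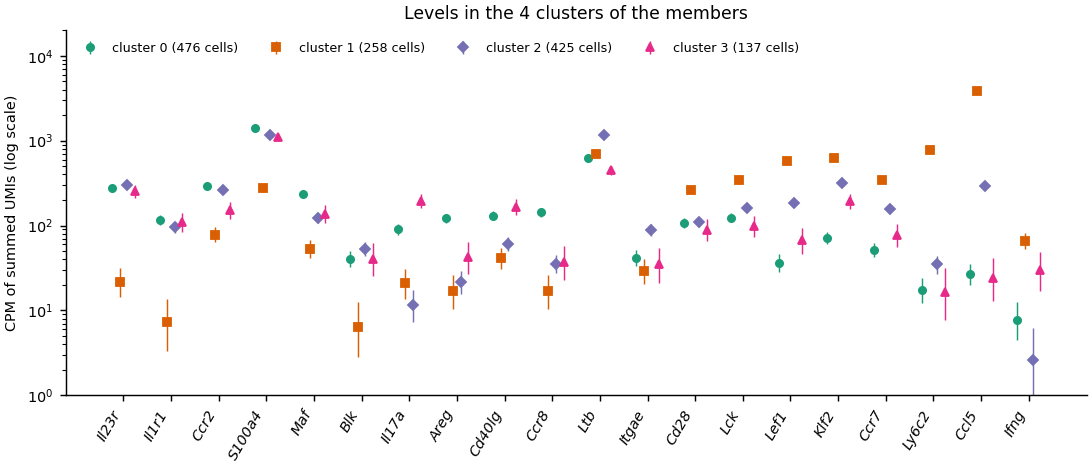
Level (CPM of summed UMIs, log scale, vertical axis) of 20 genes (horizontal axis) in the 4 clusters of members; lines are 95% counting intervals. Cluster 1 (orange squares) lies apart from the other clusters, with Il23r at 21.8 CPM and Ccl5 at 3828 CPM, and Il17a is at 195 CPM in cluster 3 and 11.6 CPM in cluster 2.

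Absence of a dv6 transcript does not show absence of the dv6 chain. Of the members 686 (52.9%) had a transcript of another delta variable gene, and 610 had none at all. Requiring another delta gene left 10.65% of KO T cells as members in place of 19.97%. Trdv2-2 was read in 287 members (22.1%), Trdv5 in 139 (10.7%), Trav13-4-dv7 in 122 (9.41%), Trdv4 in 105 (8.10%) and Trdv1 in 104 (8.02%). Among the 558 members with a single delta gene, 216 had Trdv2-2, and 128 members had several. The share with another delta gene lay between 50.8% and 54.0% in the 4 clusters.

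The delta genes were compared with the 3625 T cells of the rest that also lacked dv6. At equal depth Trdv1 was read in 6.95% of members (5.58 to 8.54) and 18.97% of those cells (17.6 to 20.4), and Trdv4 in 4.22% (3.16 to 5.51) and 1.18% (0.831 to 1.62). Without thinning the shares were 8.02% and 19.8% for Trdv1, and 8.10% and 1.82% for Trdv4. Neither gene set members apart from gate-positive dv6 cells, which already had a dv6 transcript. Without thinning those cells had Trdv4 in 5.83% (3.84 to 8.43) and Trdv1 in 5.61% (3.66 to 8.16). The intervals overlap those of members (6.67 to 9.72 and 6.60 to 9.64). Trdv5 was lower (7.45% and 11.6%), while Trdv2-2 (18.9%, 16.7 to 21.2, and 21.2%, 19.7 to 22.6) had overlapping intervals. Trav13-4-dv7 was read in 8.53% (7.01 to 10.3) and 6.50% (5.66 to 7.41). In the WT library Trdv4, the delta gene that pairs with Vγ6, was read in 62.7% of cells chosen by the same rule and gave 83.8% of their delta UMIs. In members it gave 4.99% of delta UMIs.

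Levels were also set out by the single delta gene a member carried. Il23r lay between 189 CPM (Trav21-dv12, 38 cells) and 254 CPM (Trdv2-2, 216 cells) across the 6 genes with most cells. Il17a lay between 11.7 CPM (Trdv4, 3 UMIs in 59 cells) and 65.9 CPM (Trdv5, 29 UMIs in 91 cells). The shares of cells with an Il17a UMI were 5.085% and 6.59% in these sets. Over the 6 genes they lay between 3.08% (Trdv1) and 8.54% (Trav13-4-dv7), so no order is read from the levels. Ccl5 was lowest with Trdv5 (379 CPM) and highest with Trdv2-2 (1018 CPM). Cd28 lay between 107 and 140.1 CPM in all 6. The 610 members with no delta gene read stood at 250.1 CPM of Il23r and 78.5 CPM of Il17a.

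Co-detection within the 1208 members deep enough for thinning is given as description. Cd28 was read in 16.01% of members with an Il23r UMI (12.4 to 20.2) and in 23.4% of those without (20.6 to 26.4). Cd27 was read in 26.7% and 40.1%, respectively. Il17a was read in 7.87% of members with Il23r (5.29 to 11.2) and 4.34% of those without (3.08 to 5.94). Of the 65 members with an Il17a UMI, 12 (18.5%, 9.92 to 30.03) had a Blk UMI, against 4.90% of the others. A Tcf7 UMI was read in 5 of them (7.69%), against 27.7%. Ifng was read in 0 of the 65 (0 to 5.52%) and in 3.76% of the others. The latter share lies inside that interval, so no difference is read from the 0. Ccr8 was read in 17.3% of members with Cd40lg (11.8 to 24.0) and 6.60% of those without. Blk was read in 1.17% of members with Cd28 and 6.83% of those without.

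Members and the 446 gate-positive cells with dv6 differed by at least 2-fold in few genes. Of 7206 genes compared, 10 (0.139%) were at least 2-fold higher in members and 5 (0.0694%) lower, and the median log2 ratio was within 0.01 of 0. Without cluster 1 of the members 14 genes were higher and 41 lower, and 3 of 9 type 1 genes were lower; the dv6 cells were left as they were. The dv6 cells had a higher median depth of 4676 UMIs. Over the 14 lists 1 gene was at least 2-fold higher, Gzma, which encodes granzyme A (27.4 and 7.60 CPM, 1.85, 1.14 to 2.64), and 1 lower, Top2a (9.43 and 19.4 CPM, -1.04, -1.64 to -0.44). Neither held throughout, with Gzma at -0.19 without cluster 1 of the members, described above, and Top2a at 0.21 after thinning. Outside the lists the higher genes were Hspb1 (2.32), Cxcl2 (1.39), Acaca, Samd3 and 5 T cell receptor variable genes, and the lower ones were Hist1h2ae (-1.62), Sox5 (-1.41), Hist1h2bc and Cenpw. All of these except Hist1h2bc and the delta genes were named after their values were seen. The rule split these cells on a delta gene, so the other delta genes among the higher ones are tied to the rule. Top2a and many, though not all, histone transcripts are raised in dividing cells. Mki67, a gene of dividing cells, had 30 UMIs in members (5.24 CPM) and 9.29 CPM in dv6 cells. Whether cell division bears on these genes was not tested. List medians lay between -0.31 (cell cycle) and 0.27 (IL-17 cytokines and cofactors).

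Il23r stood at 229 and 184 CPM (0.31, 0.16 to 0.47), Il1r1 at 85.0 and 61.2 CPM (0.47), Maf at 149 and 136 CPM (0.14) and Zbtb16 at 432 and 385 CPM (0.17). Il17a stood at 59.2 and 87.4 CPM (-0.56, -0.82 to -0.31), and the ratio was near 0 after thinning, with shares of 5.38% and 5.92% (3.91 to 8.56) at equal depth, so no order is read from it. Cd28 (139 and 149.5 CPM, -0.10, -0.28 to 0.08) and Cd40lg (91.6 and 82.3 CPM, 0.15, -0.09 to 0.40) had intervals that include 0. Lef1 (-0.37) and Tcf7 (-0.31) were slightly lower in members, and Actn1 stood at 27.9 and 50.3 CPM (-0.85). By the rule of largest ratios the higher genes were Syne2 (0.86), Prkce (0.84), Vcl, Zfp462, Golim4, Dyrk1a, Rab27b, Cyfip1, Nfil3 and Egr1 (0.66), all under 2-fold. The lower ones, beside Hist1h2bc and Actn1, were Spg11 (-0.88), Aff3, Gnl3l, Brd7, Phlpp1, Hccs, Swap70 and Patj (-0.71). After thinning Zfp462 (-0.23), Nfil3 (-0.09) and Patj (0.34) had the other sign.

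A γδ T cell usually expresses 1 delta chain. Of the 446 dv6 cells 161 (36.1%) also had a transcript of another delta gene, against 52.9% of members, whom the rule requires to lack dv6. In the 446 cells Trav15-2-dv6-2 gave 564 UMIs, Trav15-1-dv6-1 424, Trav15d-1-dv6d-1 212 and Trav15d-2-dv6d-2 3, and 27 cells (6.05%) had several of the 4.

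Against the 1232 WT cells chosen by the same rule, 4 of 7 genes of the IL-17 cytokine and cofactor list were at least 2-fold lower in members. These were Il17a, Il17f, Il22 and Areg. Of the costimulation list 5 of 10 were at least 2-fold higher, of the naive list 7 of 14 and of the type 1 list 7 of 14, but these last 2 counts rested on cluster 1. Without its cells, an alternative chosen after seeing the data, 1 of 13 naive genes and 2 of 11 type 1 genes were higher, and 4 of 10 costimulation genes. Here and below the WT cells were left as they were, and genes that lead the cluster fall by construction. The T cell receptor signalling list summed to 5890 CPM in members and 5908 CPM in WT cells. Of 7741 genes compared, 164 (2.12%) were at least 2-fold higher in members and 203 (2.62%) lower, with a median of 0.04. The gate genes themselves were read on both sides. Cxcr6 (978 and 985 CPM, -0.01) and Il18r1 (292 and 291 CPM) were level, Icos was higher in members (1478 and 781 CPM, 0.92), and Ccr6 (30.5 and 74.4 CPM, -1.28) and Aqp3 (112 and 217 CPM, -0.96) were lower. The WT cells had a median depth of 3496 UMIs. By their gamma transcripts 695 of them had Tcrg-V6 and 204 had Tcrg-V4 without Tcrg-V6, and values in these sets are given for some genes.

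Of 7 cytokine genes compared, 0 were at least 2-fold higher in members and 4 lower, with a median of -1.44. Il17a stood at 59.2 CPM in members and 395 CPM in WT cells (-2.74, -2.91 to -2.57), with 404 CPM in the Tcrg-V6 and 368 CPM in the Tcrg-V4 set. Il17f stood at 7.51 and 79.8 CPM (-3.41), with 27.6 and 207 CPM in the WT sets. Il22 stood at 1.75 and 43.7 CPM (-4.65). Areg stood at 58.6 and 159 CPM (-1.44) and depended on the WT set, with 203 CPM with Tcrg-V6 and 42.7 CPM with Tcrg-V4 only. Against the Tcrg-V4 set alone the list's median turned to 0.26 over 6 genes, while Il17a and Il17f stayed lower in members. Tnf (-0.25), Lta (-0.36) and Ltb (-0.16) were within 2-fold. At equal depth Il17a was read in 5.38% of members and 28.7% of WT cells (26.1 to 31.4), against 7.79% and 34.7% without thinning.

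Of 17 cytokine receptors 1 was higher and 1 lower, with a median of -0.11. Il1r1 stood at 85.0 and 196 CPM (-1.20), with 249.7 CPM in the Tcrg-V6 and 88.0 CPM in the Tcrg-V4 set, the latter close to members. Il12rb2, a chain of the receptor for IL-12, which drives interferon-γ, was higher in members (74.2 and 17.4 CPM, 2.09). Il23r was at 229 and 389.8 CPM (-0.77), within 2-fold. Among 14 regulators 2 were higher (Sox4, 1.17, and Ahr, 1.54) and 3 lower, with a median of 0.10. Blk stood at 37.4 and 251 CPM (-2.75, -2.97 to -2.54), Sox13 at 15.5 and 36.8 CPM (-1.24) and Irf4 at 6.63 and 17.6 CPM (-1.41), which turned to 0.73 against the Tcrg-V4 set. Zbtb16 was at 432 and 251 CPM (0.78) and Maf at 149 and 209.5 CPM (-0.49).

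Costimulation genes had 5 of 10 higher and 0 lower (median 0.93). Cd40lg stood at 91.6 CPM in members and 3.44 CPM in WT cells (4.73, 4.02 to 5.55), where it had 16 UMIs, with 1.77 and 2.67 CPM in the WT sets. Cd28 stood at 139 and 18.1 CPM (2.95, 2.62 to 3.29), with 15.6 and 9.34 CPM in the WT sets. Slamf6 (2.28) and Tigit (1.06) were also higher. Cd27, whose absence marks most γδ17 cells, stood at 269 and 98.7 CPM (1.44), and at 34.0 CPM (27.5 to 41.5) with Tcrg-V6 and far higher (169 to 235 CPM) with Tcrg-V4 only. At equal depth Cd40lg was read in 13.4% of members and 0.516% of WT cells (0.190 to 1.12), and Cd28 in 21.2% and 2.15% (1.40 to 3.16). After thinning the log2 ratio of Cd28 was 3.86.

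Of 19 T cell receptor signalling genes 7 were higher and 1 lower (median 0.23). Lck stood at 182 and 33.1 CPM (2.46, 2.21 to 2.71), Cd6 at 41.2 and 6.88 CPM (2.58), Themis at 29.0 and 7.10 CPM (2.03), Prkch at 296 and 75.3 CPM (1.98) and Cd5, which tracks receptor signal strength, at 44.3 and 15.9 CPM (1.48). Fcer1g (1.85) and Prkcq (1.12) were also higher. Cd247 was lower (175 and 445 CPM, -1.34). At equal depth Lck was read in 27.5% of members and 3.61% of WT cells (2.62 to 4.86), and its share in KO myeloid or B cells, 23.1%, was near that of members. Of that last group 53.85% also held a CD3 or Trdc transcript, so it is no background free of T cell transcripts. Without cluster 1 the list had 4 of 18 higher and 1 lower, Lck was at 2.05 and Cd6 at 1.68, and Fcer1g turned to -2.71, with 4 UMIs in members. After thinning the log2 ratio was 3.21 for Lck and 3.35 for Cd6.

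Naive and recirculation genes had 7 of 14 higher and 0 lower (median 1.01). Klf2 stood at 284 and 94.7 CPM (1.59), Tcf7 at 214 and 84.8 CPM (1.34) and Lef1 at 206 and 97.9 CPM (1.07). Over all members these genes lay between the rest of the KO T cells and the WT cells. Without cluster 1 the naive list had 1 of 13 higher, Ccr9 (1.27), and a median of 0.29, with Klf2 at 0.99, Tcf7 at 0.92 and Lef1, at 101.7 CPM, at 0.06. In the WT sets Klf2 was at 59.2 CPM with Tcrg-V6 and 167 CPM with Tcrg-V4 only. Type 1 genes had 7 of 14 higher and 2 lower (median 1.04). Ly6c2 stood at 185 and 47.3 CPM (1.97), Nkg7 at 248 and 59.2 CPM (2.07), Fasl at 34.7 and 6.24 CPM (2.48), Ifng at 20.8 and 6.67 CPM (1.64), Tbx21 at 38.1 and 15.5 CPM (1.30) and Ccl5 at 935 and 430.3 CPM (1.12). Klrk1 (-1.57) and Gzma (-1.36) were lower. Gzma turned to 3.04 with at least 4 gate genes and 1.39 after thinning, and WT Gzma stood at 2.48 CPM with Tcrg-V6 and 273 CPM with Tcrg-V4 only. Cluster 1 of the members held 4739 of 5356 Ccl5 UMIs and 950 of 1061 Ly6c2 UMIs. Both genes lead that cluster, so leaving it out lowers them by construction, and the WT cells were left as they were. Without cluster 1 Ccl5 was at 137.4 CPM in members against 430.3 CPM in WT cells (-1.65). Ly6c2 was then at 24.7 against 47.3 CPM (-0.94), so the direction of both turned. The median of the type 1 list was then -0.69, with 2 of 11 genes higher and 4 lower, while Nkg7 (1.34) and Fasl (1.67) stayed higher and Ifng was at 0.30.

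Homing genes were nearer to level, with 1 of 23 higher and 5 lower (median -0.10). Ccr8 stood at 70.2 CPM in members and 5.81 CPM in WT cells (3.59, 3.03 to 4.21), and the log2 ratio was 5.63 against the Tcrg-V6 set, with 4 UMIs, and 2.13 against the Tcrg-V4 set. Rgs1 (-1.37), Cd69 (-1.08), Itgav (-1.28), Itgb1 (-1.12) and Crip1 (-1.01) were lower, though Itgav was at 0.30 against the Tcrg-V4 set. Ccr2 (222 and 271 CPM), S100a4 (1056 and 1000.0 CPM) and S100a6 (2311 and 2364 CPM) were within 2-fold. Of 15 IL-17 lineage surface genes 2 were higher and 6 lower (median 0.13). Actn2 stood at 17.6 and 374 CPM (-4.41), Cd163l1 at 133 and 983 CPM (-2.89) and Kcnk1 at 34.0 and 123 CPM (-1.85). Sema6a had 4 UMIs in members and 235 in WT cells (-6.18, -8.07 to -4.80), with 0 in the Tcrg-V4 set, and Tns4 (-5.13) and Cpne8 (-4.74) were the others. Tns4 was at -5.72 against the Tcrg-V6 set and at -1.93 against the Tcrg-V4 set, where it had 3 UMIs (0.825 to 11.7 CPM). Ctla2a (3.17) and Ctla2b (2.82), near-identical copies, were higher in members.

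Actn2 was high in both WT sets (424 and 269 CPM). Cd163l1 stood at 1348 CPM with Tcrg-V6 and 324 CPM with Tcrg-V4 only, and 5830411N06Rik (468 CPM in members and 280.5 CPM in WT cells, 0.74) stood at 23.7 and 765.5 CPM in the sets. By the rule of largest ratios, further higher genes were the receptor Gpr34 (2.10) and the pseudogene-like entries Gm8797 (2.83) and Rpl9-ps6 (2.43). Further lower genes were Bcl2a1a (3 UMIs in members, 233 in WT cells), Clnk (-4.43), Ftl1-ps1 (-4.32), Arhgef12 (-3.91), Mtcl1 (-3.65) and Abi3bp (-3.42). Gm8797, Rpl9-ps6, Ftl1-ps1 and Bcl2a1a have close copies elsewhere in the genome, so their values are uncertain. Clnk turned to 0.24 against the Tcrg-V4 set.

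Survival, glycolysis, lipid, cell cycle and stress genes were level for the most part. Of 10 survival genes 1 (Bcl2a1a) was lower, of 14 glycolysis genes, 6 lipid genes and 5 cell cycle genes 0 passed 2-fold, and of 13 immediate-early and heat-shock genes 1 was lower, Egr1 (43.3 and 104 CPM, -1.26). The summed level of that last list was 7135 CPM in members, 6348 CPM in gate-positive dv6 cells and 8438 CPM in WT cells. Myeloid markers summed to 4.89 and 6.88 CPM, αβ T cell markers to 47.7 and 36.6 CPM and B cell markers to 80.1 and 63.5 CPM in members and WT cells.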

How the data were processed

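Single lung γδ T cells of 2 groups, 1 droplet library each, were analysed from the deposited matrices of UMI counts per gene and cell barcode. The authors made these counts with Cell Ranger on the mouse genome mm10 (GRCm38). The file headers name version 7.0.0 and the study's methods an older release, and the methods name a 5′ V(D)J kit where the labels name a 3′ protocol. Intron counting, use of strand and the annotation release were not stated in the labels, headers or methods. The deposited counts are unnormalised, restricted to called barcodes and without the study's cell filter, which was applied here and left 2505 WT and 6634 KO cells. The study states fewer cells of each group after its filter. The libraries held 9173997 and 26436826 UMIs, at medians of 3288 and 3521 UMIs per cell.

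The members, gene lists and markers were chosen with earlier results of these data known. UMIs were summed over each set of cells and scaled to 1000000 (CPM). Log2 ratios carry exact conditional 95% intervals, shares exact Clopper-Pearson intervals, and PCR and cell-to-cell spread are outside both. Genes with at least 100 UMIs over both sets were compared, a call is a 2-fold difference, and no test was run because each group has 1 library. A set at 0 UMIs was placed at a floor of 3 UMIs. Where a share of 0 is said to allow a value, that value is 3 cells of the set and not an exact interval. For 40 features that share a symbol with a feature of more UMIs, the symbol was left to the latter. Shares at equal depth used 2000 UMIs per cell, which left out 88 members. Members were clustered by the Leiden method (resolution 0.4, 1500 variable genes, 20 principal components, 15 neighbours, seed 0) without gate, TCR, sex-linked and mitochondrial genes.

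Genes named are the gate, marker and list genes, the TCR genes, and for each comparison the 10 highest and 10 lowest ratios among genes read in at least 10% of the cells of either set. Some genes are not reported here. The functions were run on simulated Poisson sums over 7075 to 9538 genes, with genes changed by 1.5 or 2 on the log2 scale. The direction was right for 100% of changed genes and 95.7% to 95.8% of the intervals held the true ratio. The intervals rest on that same counting model, so this checks the code only, and spread between cells was not simulated. Python 3.11.15 was used with numpy 2.4.6, scipy 1.17.1, pandas 2.3.3, scanpy 1.11.5, igraph 0.11.9 and matplotlib 3.10.9. The alternatives covered the gate threshold, depth, doublets, cell filter, minimum count, scaling and the choice of WT cells.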

Additional observations from a re-analysis of the deposited data

How the results depend on the processing

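No paired analysis was possible because neither group holds more than 1 library. Counts and shares were recomputed under 16 alternatives and 2 added after seeing the data, which left the gate-positive dv6 cells out of the rest or cluster 1 out of the members. The share of KO T cells that were members was 27.6% with 2 gate genes, 15.5% with 4, 18.6% after thinning and 10.65% where another delta gene had to be read. With 2 gate genes 148 genes were lower than the rest and 6 higher than dv6 cells. After thinning 19 genes were higher and 0 lower than dv6 cells, and 88 higher and 119 lower than WT cells. Leaving out the top doublet scores gave 3 genes lower than dv6 cells, and means over cells gave 18 higher and 3 lower. A minimum of 30 UMIs gave 716 higher and 643 lower genes against the rest, 94 and 55 against dv6 cells and 366 and 361 against WT cells. Asking also for a UMI in 10% of cells gave 277 and 139, 1 and 1, and 94 and 134. Against WT cells with Tcrg-V4 only, 281 were higher and 112 lower. Without cluster 1, 574 genes were lower than the rest, 41 lower than dv6 cells and 89 higher than WT cells. The minimum count settings also changed which genes were compared, and the cause of the changes in count was not tested for any alternative. The other 70 recomputed counts and shares stayed within 1.5 times or, for the share, its interval.

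Of the recomputed ratios of named and listed genes 8954 stayed within their interval, 1772 moved beyond it and 15 that were at least 2-fold apart turned direction. Against WT cells, with cluster 1 left out of the members only, these were Ccl5 (-1.65), Ly6c2 (-0.94), Klrd1 (-0.69), Fcer1g (-2.71) and Actn1 (-0.0029). Against WT cells with Tcrg-V4 only they were Areg (0.46), Irf4 (0.73), Itgav (0.30) and Clnk (0.24). Gzma against WT cells turned to 3.04 with 4 gate genes, 1.39 after thinning and 3.47 against the Tcrg-V6 set, and against dv6 cells to -0.19 without cluster 1. After thinning Top2a against dv6 cells turned to 0.21 and Cpne8 against the rest to -0.22. Of the recomputed list medians 630 moved by under 0.2 on the log2 scale, 82 moved further and 2 that were past 2-fold turned direction. That of the IL-17 cytokines and cofactors turned to 0.26 against WT cells with Tcrg-V4 only. That of the type 1 list turned to -0.69 against WT cells, with cluster 1 left out of the members only. Genes under 100 UMIs over both sets were not compared, and nothing here measures the spread between animals.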
